A study of Mus musculus with 6 samples.

Results

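The genes described here encode chromatin modifiers and corepressors. They are the enzymes that add or remove acetyl and methyl groups on histones and DNA, the proteins that read those groups, the motors that move nucleosomes, and the scaffolds of corepressor complexes. They were taken from the deposited table by symbol, among protein-coding genes with no transcription factor family in the table, and 43 of the 4195 listed genes met this rule. A further 5 genes matched by name but carried a transcription factor family. Of the corepressor scaffolds TBL1XR1 was the single member, and most members are histone enzymes, readers and remodellers. Genes that the name rule would cover but that the table does not list, such as EP300 and EZH2, have no value here.

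As background, acetylation of histone tails by acetyltransferases opens chromatin and is read by bromodomain proteins, and deacetylases reverse it, often within corepressor complexes. Methylation of histone lysines marks active promoters and enhancers or silent regions, depending on the lysine. Remodelling ATPases slide, evict or space nucleosomes. Many squamous carcinomas carry mutations in such genes.

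The libraries came from KYSE30, an established human line from an esophageal squamous cell carcinoma, whose genotype is labelled wild type. In the ACh group, 3 libraries were made from cells exposed for 4 h to 100 uM acetylcholine, a transmitter that acts on muscarinic and nicotinic receptors. In the Control group, 3 libraries were made from the same line at the same time with the treatment given as control. The comparison asks how transcript levels of chromatin genes stand after acetylcholine in this single cell line.

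Values are read counts that the authors normalised with 1 factor per library, and the total depth is unknown. Values of a library were whole multiples of 1 step, of 1.05 to 1.13 in ACh and 0.768 to 1.01 in Control. If 1 step is 1 read, every Control library held more reads over the listed genes than every ACh library. The part of depth in the results was not tested. Summed over the table, normalised counts ran from 10519515 to 10681118 in ACh and from 11097307 to 11468978 in Control. Members held 0.673% to 0.697% of the sum in ACh and 0.635% to 0.652% in Control. The members' own sums overlapped, at 71874 to 73368 in ACh and 71460 to 72806 in Control. The labels do not say that replicates were separate cultures, so the spread behind each p-value may be technical. In bulk RNA, fewer cells expressing a gene and less RNA per cell cannot be told apart. Of 9 basal squamous markers 5 were listed, and KRT5 and KRT14 were not. DST, TP63 and DSG3 were higher in every ACh library (DST 10795 to 11141 in ACh and 9092 to 9759 in Control), SOX2 was lower in every one (2521 to 2634 in ACh and 2920 to 3026 in Control), and KRT15 overlapped (2289 to 2900 in ACh and 2899 to 2990.0 in Control). Their sum, carried by DST, was 19681 to 20355 in ACh and 18609 to 19031 in Control. Of 5 fibroblast, 4 leukocyte and 4 endothelial markers 1 each was listed (COL1A1, LAPTM5 and EGFL7, in that order), with levels of 133 to 147, 31.1 to 48.2 and 818 to 969.6 in ACh and of 146 to 193, 17.7 to 21.3 and 1052 to 1081 in Control. Their part in the results was not tested.

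The table holds only genes with an unadjusted p under 0.05 in the authors' own comparison of the same 6 libraries, so every member was listed because it differed between ACh and Control. A gene is said here to have risen or fallen only where limma on log2(value + 1) and the authors' deposited table both gave an adjusted p under 0.05. Of the 43 members 30 passed both (69.8%), against 63.8% of all listed genes. There were 18 that rose (41.9%, against 28.8% of all listed genes) and 12 that fell (27.9%, against 35.0%), and 13 did not pass both. At the limit, the authors' deposited table gave HDAC5 an adjusted p of 0.0499 and KAT6A one of 0.0509. The count of 30 is set by the authors' adjusted p, which alone gives 30, since limma alone called all 43 members. With libraries scaled to equal totals over the listed genes, 18 members rose (28.8% of all listed genes) and 5 fell (23.6% of all listed genes), the falls being in DNMT1, SIRT7, HDAC7, SIRT6 and SMARCB1. The whole table moved with this scaling: limma alone called 3175 genes, 63.7% of them higher, where it called 4178 genes, 48.2% of them higher, on the values as deposited. With the trend on base composition removed, as described further on, 3 of the 30 calls were kept.

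Changes were small. The median size of the log2 fold change was 0.20 over the members, against 0.21 over all listed genes, and 42 of 43 members changed by less than 1.5-fold. The signed median was 0.15 over the members and -0.098 over all listed genes. Changes near 0 are scarce in a table cut at p under 0.05, so a signed median follows the balance of directions. The values of the ACh and Control libraries did not overlap for 42 of 43 members, against 93.0% of all listed genes, the exception being KMT2A. All ACh libraries were higher for 25 members (44.6% of all listed genes) and lower for 17 (48.3% of all listed genes).

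**Figure D1:**
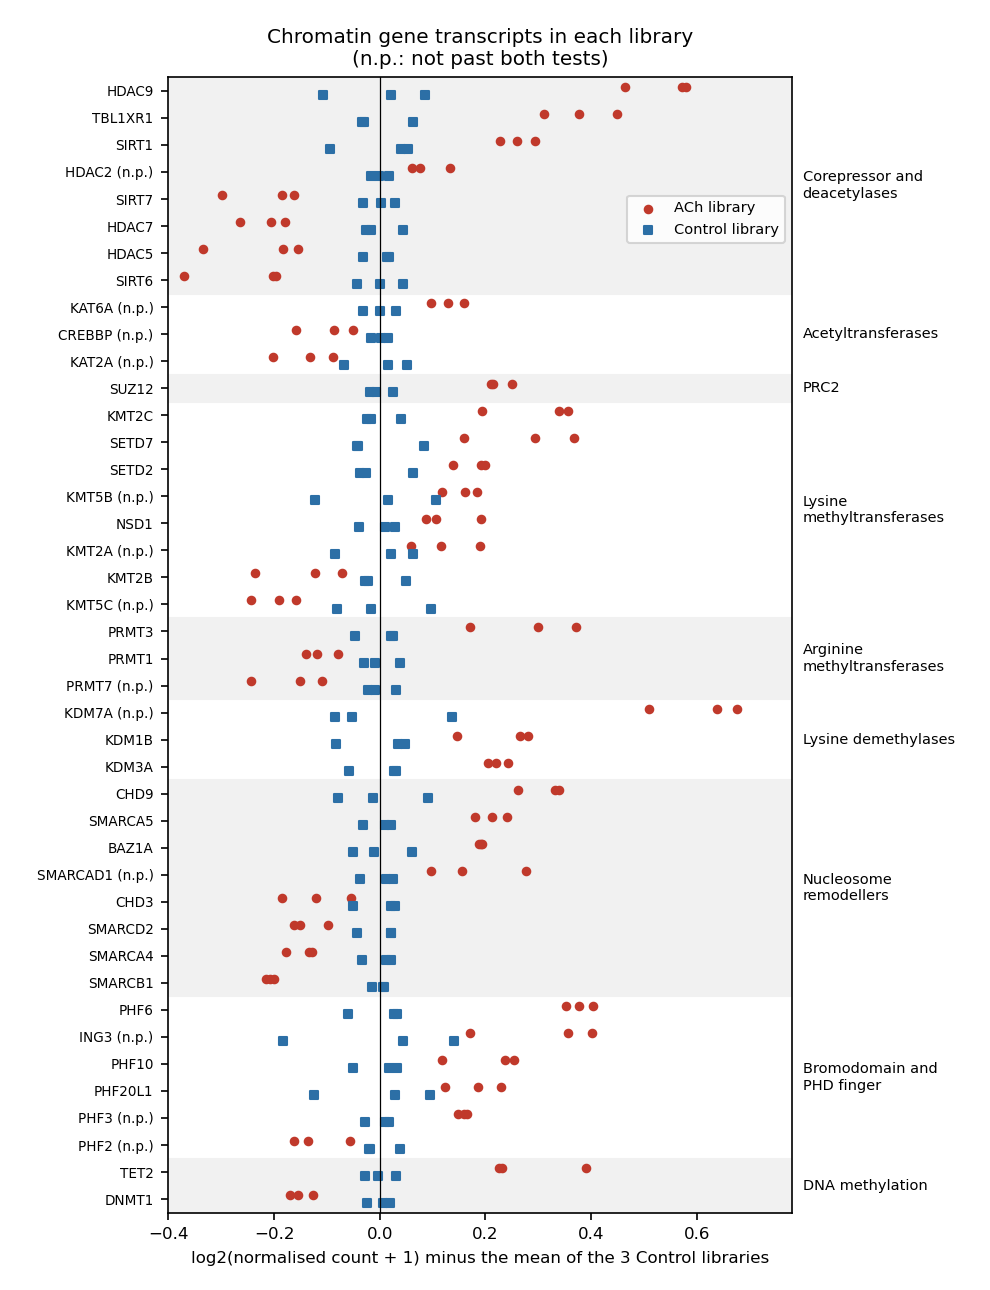
Each of the 42 rows is a gene and each point a library, as log2(normalised count + 1) minus the mean of the 3 Control libraries (horizontal axis), with ACh libraries as circles above and Control libraries as squares below; shaded bands separate the functional classes named at the right, and n.p. marks genes not past both tests. HDAC9 and KDM7A stand farthest to the right, SIRT6 lies farthest to the left, and KMT2A is the gene whose groups overlap.

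Among the corepressor scaffold and the deacetylases, 3 rose and 4 fell, while HDAC2 missed the authors' limit. TBL1XR1 encodes a beta-propeller subunit of nuclear receptor corepressor complexes that helps to exchange corepressors for coactivators (ENSG00000177565, chromosome 3, 177019340 to 177228000 as the file gives it). Its normalised counts were 1725, 1641 and 1567 in the ACh libraries and 1319, 1235 and 1238 in the Control libraries. The lowest ACh library lay above the highest Control library. The log2 fold change was 0.38 ± 0.046 (SE) (limma adjusted p = 3.3e-06).

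HDAC9, a class IIa deacetylase that shuttles between nucleus and cytoplasm (ENSG00000048052, chromosome 7, 18086949 to 19002416), had the largest rise among the members past both tests. It stood at 312, 338 and 336 in the ACh libraries and 239.9, 229 and 209.6 in the Control libraries. All ACh libraries were above all Control libraries, by a mean factor of 1.45, with a log2 fold change of 0.54 ± 0.091 (SE) (limma adjusted p = 6.64e-05). The other class IIa members fell. HDAC5 had 546, 482 and 536 in the ACh libraries and 614, 595 and 615 in the Control libraries, and HDAC7 had 925, 964 and 982 in the ACh libraries and 1099, 1146 and 1091 in the Control libraries. For both genes every ACh library was below every Control library, with log2 fold changes of -0.22 and -0.22. The class I enzyme HDAC2, a catalytic subunit of several corepressor complexes, averaged 3169 ± 83.6 in ACh and 2976 ± 34.0 in Control (SD, n = 3 each). It did not pass both tests (log2 fold change 0.090, authors' deposited table adjusted p = 0.106). The HDAC7 locus overlaps the listed gene SLC48A1 on the other strand, and no source says that reads were counted by strand, so reads of the pair could not be told apart.

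The sirtuins, deacylases that consume NAD, were split in the same way. SIRT1 had 475, 487 and 464 in the ACh libraries and 412, 408 and 372 in the Control libraries, a log2 fold change of 0.26. SIRT6, which acts in DNA repair and at telomeres, had 506, 508 and 451 in the ACh libraries and 582, 601 and 565 in the Control libraries, a log2 fold change of -0.26 and the largest fall among the members. SIRT7, a nucleolar enzyme, averaged 947 ± 47.4 in ACh and 1099 ± 23.2 in Control (SD, n = 3 each). It fell by 0.22 on the log2 scale. Its locus overlaps MAFG, which was also lower in ACh, on the same strand. SIRT1 rose and SIRT6 and SIRT7 fell past both tests, and the groups did not overlap for any of the 3 genes.

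**Figure D2:**
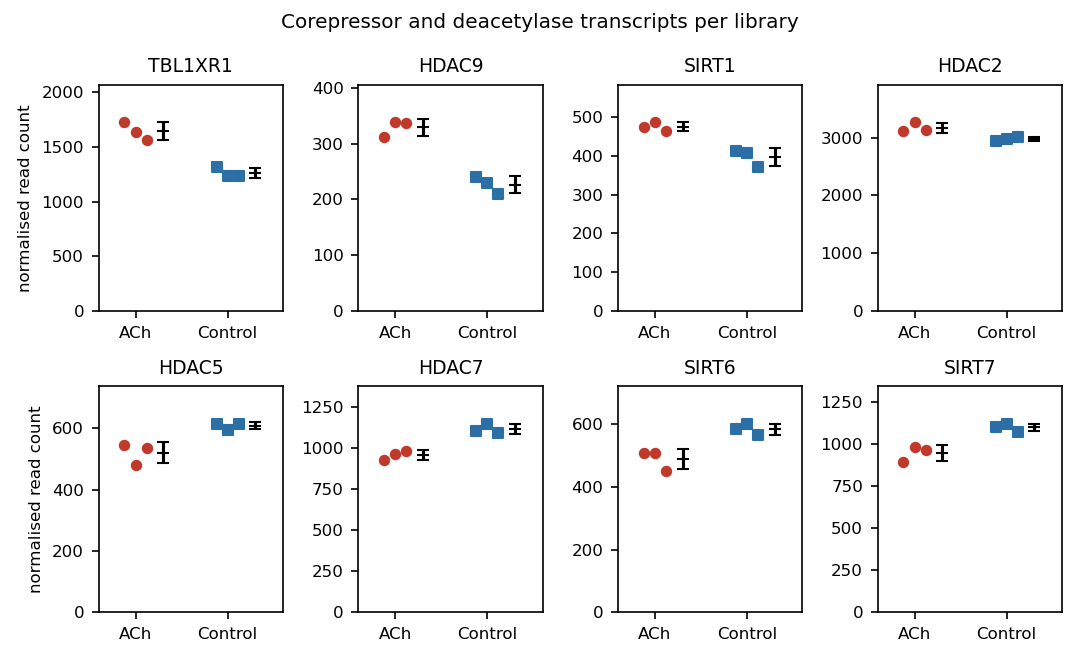
Normalised read counts (vertical axis, starting at 0) of the corepressor subunit TBL1XR1 and of 7 deacetylase genes in each ACh (circles, left) and Control (squares, right) library; bars give the mean and SD of the 3 libraries. TBL1XR1, HDAC9, SIRT1 and HDAC2 were higher in every ACh library, and HDAC5, HDAC7, SIRT6 and SIRT7 lower in every one.

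Of 3 acetyltransferase genes 0 passed both tests; limma alone called all 3, as it did 99.6% of all listed genes. CREBBP, a coactivator that acetylates histones at enhancers, had 4041, 3842 and 4142 in the ACh libraries and 4239.6, 4337 and 4297 in the Control libraries. Every ACh library was below every Control library, by a log2 fold change of -0.099 (authors' deposited table adjusted p = 0.0587). KAT2A, the acetyltransferase of the SAGA coactivator, averaged 1111 ± 43.9 in ACh and 1225 ± 51.4 in Control (SD, n = 3 each). KAT6A, of the MOZ complex, averaged 1959 ± 43.3 in ACh and 1792 ± 38.7 in Control (SD, n = 3 each). Their log2 fold changes were -0.14 and 0.13.

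Polycomb repressive complex 2, which methylates histones in silenced regions, was represented by its subunit SUZ12, needed for the stability of the complex (ENSG00000178691, chromosome 17, 31937018 to 32001045). It had 1405, 1407 and 1443 in the ACh libraries and 1198, 1235 and 1208 in the Control libraries. The replicates of each group lay close together, and SUZ12 rose by 0.22 on the log2 scale (limma adjusted p = 0.000196). Its catalytic subunits and EED are not listed.

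Among 8 genes for other histone lysine methyltransferases, 4 rose and 1 fell, and 3 missed the authors' limit. KMT2C, a very large methyltransferase of enhancers, had 891, 987 and 998 in the ACh libraries and 767, 802 and 770.1 in the Control libraries, a log2 fold change of 0.30 ± 0.056 (SE). ACh replicate 1 was the lowest of its group and still above all Control libraries. SETD7, which methylates histones and transcription factors, had 805, 884 and 931 in the ACh libraries and 701, 764 and 699 in the Control libraries and rose by 0.27. SETD2 and NSD1, which methylate histones along transcribed genes, averaged 1418 and 3748 in ACh and 1255 and 3428 in Control, rises of 0.18 and 0.13.

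KMT2B, a methyltransferase of promoters and paralog of KMT2A, was the one gene of this class that fell, with 2025, 1871 and 2098 in the ACh libraries and 2164, 2170.3 and 2283 in the Control libraries. The log2 fold change was -0.14 ± 0.043 (SE). KMT2A itself had 1611, 1550.0 and 1696 in the ACh libraries and 1509, 1401 and 1554 in the Control libraries. Its groups overlapped, since ACh replicate 2 lay below Control replicate 3. At a log2 fold change of 0.12 it missed the authors' limit (authors' deposited table adjusted p = 0.132). KMT5B and KMT5C, paired enzymes of heterochromatin methylation, stood at log2 fold changes of 0.15 and -0.20 and did not pass both tests either.

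The arginine methyltransferase genes went both ways, with 1 rise, 1 fall and 1 gene not past both tests. PRMT3, which modifies a ribosomal protein in the cytoplasm, had 817, 859 and 747 in the ACh libraries and 675, 642 and 673 in the Control libraries and rose by 0.28 on the log2 scale. PRMT1, the main enzyme of asymmetric arginine methylation, had 5185, 5329 and 5113 in the ACh libraries and 5784, 5596 and 5519.7 in the Control libraries and fell by 0.11. Groups did not overlap for either gene. PRMT7, an enzyme of arginine monomethylation, had 712, 733 and 668 in the ACh libraries and 779, 808 and 786 in the Control libraries, a log2 fold change of -0.17.

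All 3 lysine demethylase genes were higher in ACh, and 2 of them rose. KDM3A, an oxygen-dependent enzyme that removes repressive methyl groups, had 957, 972 and 946 in the ACh libraries and 836, 839 and 789 in the Control libraries, a log2 fold change of 0.22 ± 0.052 (SE). KDM1B, a flavin-dependent demethylase, had 839, 764 and 830.1 in the ACh libraries and 651, 707 and 714 in the Control libraries and a log2 fold change of 0.23. KDM7A, which also removes repressive methyl groups, had 83.6, 86.0 and 76.5 in the ACh libraries and 50.3, 58.9 and 51.4 in the Control libraries. Its log2 fold change of 0.61 ± 0.16 (SE) was the largest among the members. It was 1 of 234 listed genes that the authors' deposited table gives an adjusted p of exactly 1, and these were treated as not adjusted, so it could not pass both tests. At this level a few reads move the value.

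Nucleosome remodeller genes went both ways. The imitation-switch ATPase SMARCA5 and its partner BAZ1A, which together space nucleosomes, both rose, and so did the ATPase gene CHD9. SMARCA5 had 2136, 2229 and 2184 in the ACh libraries and 1913, 1899 and 1844 in the Control libraries, and its log2 fold change was 0.21 ± 0.037 (SE). BAZ1A averaged 1395 ± 3.34 in ACh and 1223 ± 48.9 in Control (SD, n = 3 each), a rise of 0.19. CHD9 had 1011, 1062 and 1068 in the ACh libraries and 799, 836 and 899 in the Control libraries and rose by 0.31. SMARCAD1, a remodeller of newly replicated chromatin, did not pass both tests, at a log2 fold change of 0.18.

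The 3 BAF complex genes in this class fell. SMARCB1, a core subunit of this SWI/SNF remodeller that is lost in rhabdoid tumours, had 2174, 2162 and 2153 in the ACh libraries and 2512, 2510.3 and 2472 in the Control libraries. ACh libraries lay within 1% of each other, and the log2 fold change was -0.21 ± 0.035 (SE) (limma adjusted p = 6.28e-05). SMARCA4, an ATPase of the complex, had 4495, 4362 and 4515 in the ACh libraries and 4820.1, 5005 and 4971 in the Control libraries and fell by 0.15. SMARCD2, an accessory subunit, fell by 0.14. Not all genes of such remodellers fell: PHF10, of the PBAF remodeller, rose by 0.20, and SS18, a BAF subunit outside the name rule, rose by 0.12. CHD3, an ATPase of the NuRD deacetylase complex, averaged 4325 ± 196 in ACh and 4698 ± 141 in Control (SD, n = 3 each) and had a log2 fold change of -0.12. CHD3 overlaps the listed gene NAA38 on the other strand. The class thus had 3 rises and 4 falls among its 8 genes.

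Of 7 genes for bromodomain and PHD finger proteins, 3 rose and 1 fell, and 3 missed the authors' limit. PHF6, an X-linked nuclear protein mutated in an intellectual disability syndrome and in leukaemia (ENSG00000156531, chromosome X, 134373253 to 134428791), had 2574, 2666 and 2616 in the ACh libraries and 2060.1, 2054 and 1934 in the Control libraries. The log2 fold change was 0.38 ± 0.037 (SE) (limma adjusted p = 4.34e-07), the smallest p among the members. PHF10, a subunit of the PBAF remodeller, had 868, 858 and 789 in the ACh libraries and 736, 702 and 744 in the Control libraries and rose by 0.20. PHF20L1, a reader of methylated lysines, rose by 0.18. ING3, PHF3 and PHF2, which did not pass both tests, stood at log2 fold changes of 0.31, 0.16 and -0.12.

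DNA methylation was represented by its maintenance enzyme and by a gene for its removal. DNMT1, which copies methylation after replication, had 5671, 5609.5 and 5778 in the ACh libraries and 6204, 6392 and 6334 in the Control libraries. It fell by 0.15 on the log2 scale (SE 0.031). TET2, which oxidises methylcytosine, had 733, 731 and 819 in the ACh libraries and 613, 623 and 638 in the Control libraries, a rise of 0.28. ACh libraries were all below the Control libraries for DNMT1 and all above them for TET2. Both genes passed both tests.

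Relatives that moved apart can be set against each other within a library, where library scaling cancels. The members with the highest and the lowest log2 fold change in 7 name families were paired after their values were seen, so the ratios below are a description with no test. The ratio of HDAC9 to HDAC5 normalised counts was 0.572, 0.702 and 0.628 in ACh and 0.391, 0.386 and 0.341 in Control. SIRT1 over SIRT6 was 0.939, 0.958 and 1.03 in ACh and 0.707, 0.679 and 0.658 in Control. These pairs showed the largest shifts, of 1.70-fold and 1.43-fold between the group means. The ratio of SMARCA5 to SMARCA4 averaged 0.490 ± 0.0187 in ACh and 0.382 ± 0.0132 in Control (SD, n = 3 each). That of KMT2C to KMT2B averaged 0.481 ± 0.0438 in ACh and 0.354 ± 0.0160 in Control (SD, n = 3 each), and that of CHD9 to CHD3 0.242 ± 0.00656 in ACh and 0.180 ± 0.00694 in Control. PRMT3 over PRMT7 averaged 1.15 ± 0.0260 in ACh and 0.840 ± 0.0387 in Control, and KMT5B over KMT5C 2.37 ± 0.123 in ACh and 1.87 ± 0.238 in Control. No ratio overlapped between the groups, but the choice of pairs fixed this outcome. In each pair the first gene was higher and the second lower in every ACh library, so the ratios could not overlap.

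Direction followed base composition without exception among the members. GC content was taken from the mouse transcript of the same symbol, because human sequence was not used here, and was found for all 43 members. The 26 genes with higher means in ACh had GC contents from 39.1% (PHF6) to 50.6% (KMT2A), and the 17 with lower means from 51.7% (CREBBP) to 60.0% (KMT5C), so the ranges did not meet. The same held for most of the table: of 1031 listed genes with a GC content under 45%, 96.5% were higher in ACh, and of 1295 at 55% or more, 1.31% were. Across members, Spearman's rho between GC content and the log2 fold change was -0.80, and across 3676 listed genes it was -0.76. Points share their libraries, and genes are not independent replicates. The relatives that moved apart differed in GC content too, by name CHD9 (45.1%) and CHD3 (56.1%), SIRT1 (44.0%) and SIRT6 (58.4%), and SMARCA5 (40.7%) and SMARCA4 (55.9%).

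**Figure D3:**
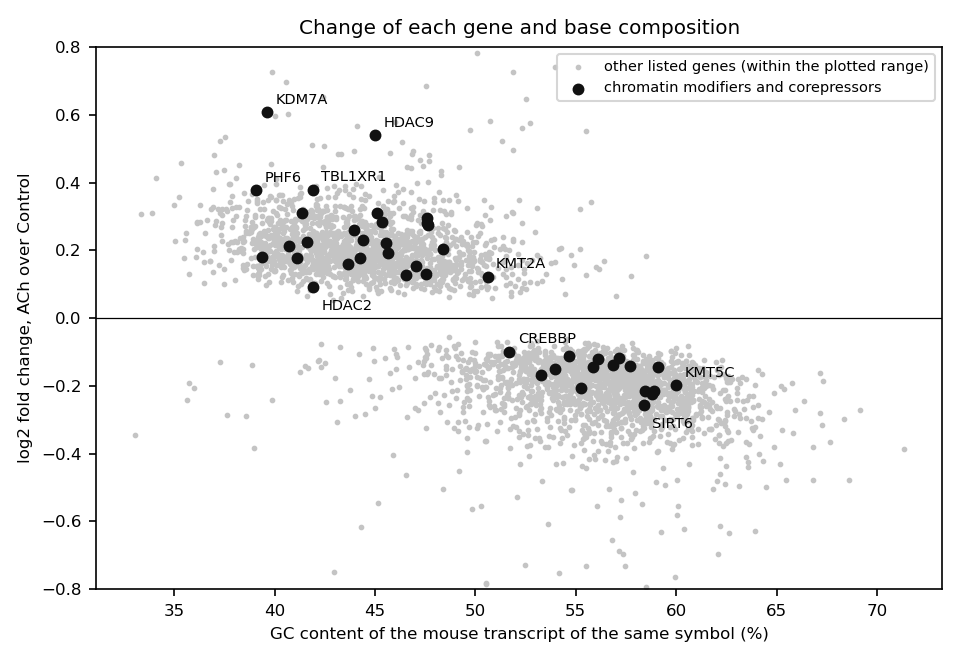
Log2 fold change of ACh over Control (vertical axis) against the GC content of the mouse transcript of the same symbol in % (horizontal axis), for 42 chromatin modifier and corepressor genes (black) and the other listed genes (grey; those beyond a change of 0.8 are not drawn). All black points left of 51% lie above 0 and all others below it, and the grey points follow the same slope; the empty band around 0 comes from the limit on p in the table.

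After a local regression took the GC trend out of each library, limma called 5 of the 43 members (11.6%), against 16.4% of the 3676 listed genes with a GC value. There were 4 higher (7.86% of those genes) and 1 lower (8.51%). Of the 30 members past both tests 3 kept call and sign (10.0%), against 12.8% of all such listed genes. These were HDAC9, TBL1XR1 and PHF6, at log2 fold changes of 0.35, 0.17 and 0.15 (limma adjusted p = 0.00522, 0.00856 and 0.0049). KMT2C stood at 0.15 with a limma adjusted p of 0.0731, and passed with a first-degree regression (0.17, adjusted p = 0.0388) or with the replicate block added (adjusted p = 0.0389). Of the 12 falls 0 were kept by limma, and at an unadjusted p under 0.05 the count was also 0, while SMARCD2 and KMT2B passed that limit in the opposite direction. With the replicate block added, KMT2B was called higher in ACh by limma (0.099, adjusted p = 0.0302), against its fall in the values as deposited. The largest remaining negative value among them was -0.037 for SMARCB1.

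Another pair of genes passed limma with the trend removed without having passed both tests before. HDAC2 turned to -0.12 (limma adjusted p = 0.0109), the opposite of its deposited direction, and KMT2A stood at 0.14 (adjusted p = 0.0291). In all, 22 of 43 members changed sign (51.2%), against 42.6% of the listed genes. The ratio of HDAC9 to HDAC5 kept a difference of 0.34 on the log2 scale, where 0.76 was measured with the trend kept, and SIRT1 to SIRT6 one of 0.086 in place of 0.52. For SMARCA5 to SMARCA4 it was -0.041 in place of 0.36. The part of base composition in the changes as deposited was not tested.

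**Figure D4:**
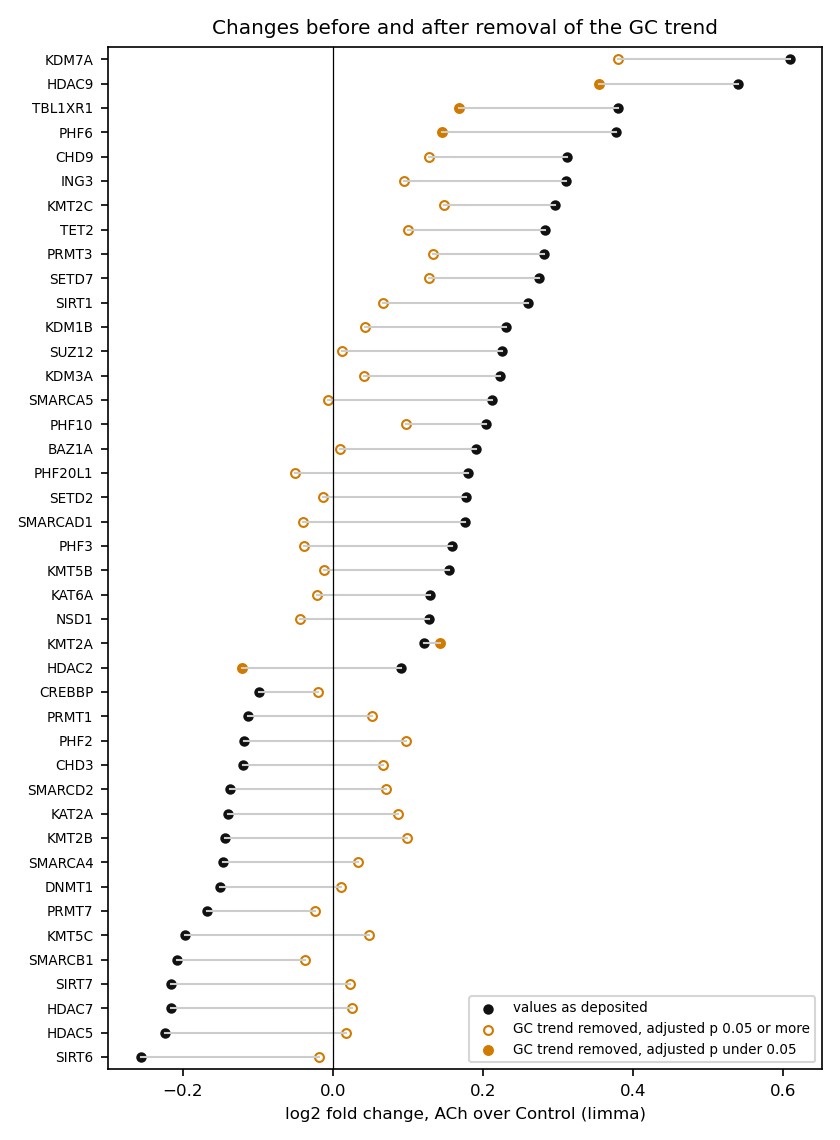
Log2 fold change of ACh over Control (horizontal axis) of each of 42 genes (rows, ordered by the deposited change) with the values as deposited (black) and after the GC trend was taken out (orange; filled where the limma adjusted p was under 0.05). HDAC9, TBL1XR1, PHF6 and KMT2A stay to the right with filled symbols. HDAC2 crosses to the left with a filled symbol, and other higher genes, among them SMARCA5, SETD2 and NSD1, cross with open ones. Of the lower genes SIRT6, SMARCB1, PRMT7 and CREBBP stay below 0 while the others cross it.

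Members had long listed lengths. Length here is the value the authors list, which can be far shorter than the span on the chromosome. HDAC9, for example, has a listed length of 16827 bases but lies between positions 18086949 and 19002416. The median listed length was 9758 bases over the members and 5220 over all listed genes. KMT2A and KAT6A had the longest listed lengths among the members, 31305 and 24175 bases. Length varied less with direction than GC content did, with a Spearman's rho of 0.18 between length and log2 fold change across the 43 members and of 0.34 across the 4195 listed genes. With the trend on gene length removed from each library, a setting added after seeing the data, 22 members were higher and 21 lower and the signed median was 0.013.

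By position, all 7 members on chromosome 19 were lower in ACh, among them DNMT1, SMARCA4 and SIRT6, where 7.88% of the 406 listed genes on that chromosome were higher. On chromosome 17, 5 of 6 members were lower and SUZ12 was higher, and 23.9% of 259 listed genes there were higher. All 4 members on chromosome 4 (SMARCA5, TET2, SETD7 and SMARCAD1) were higher, as were 78.7% of its 141 listed genes. The 4 members on chromosome 7 (HDAC9, KMT2C, KDM7A and ING3) were higher, where 49.0% of 202 listed genes were.

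Levels were compared per length, as the mean normalised count over the 6 libraries per kilobase of listed gene length. PRMT1 was highest at 1130.3, followed by SMARCD2 at 685, DNMT1 at 612 and CHD3 at 462, all of which fell. KDM7A at 7.19 and HDAC9 at 16.5 were the lowest, and these had the largest changes. Their SEs were also wide, 0.16 and 0.091 on the log2 scale, against 0.031 for DNMT1. A gene with a wide SE is listed at p under 0.05 only if its change is large. A link between low level and large change is thus partly built into the listing. SMARCD2 and DNMT1 did not overlap in either group, with 653 ± 15.6 and 580.5 ± 8.70 in ACh and 718 ± 18.7 and 644 ± 9.85 in Control (SD, n = 3 each). Across the 43 members Spearman's rho between the mean normalised count, not divided by length, and the log2 fold change was -0.34. The limit on p bears on this value too.

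Among the 5 genes that matched by name but carried a transcription factor family, BAZ2B and ASH1L rose by 0.34 and 0.21, ARID3A fell by 0.23, and SMARCC2, a BAF subunit at -0.12, did not pass both tests.

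Partner subunits and other chromatin genes outside the name rule were read from a list of 174, of which 57 were listed. Of these 16 rose (28.1%, against 28.8% of all listed genes) and 23 fell (40.4%, against 35.0%). The other 18 missed the authors' limit. The signed median was -0.11, against -0.098 over all listed genes. The largest change was in GPS2, another subunit of such corepressor complexes, with 57.9, 47.5 and 59.7 in the ACh libraries and 97.7, 139 and 139 in the Control libraries. ACh libraries were all below the Control libraries, a log2 fold change of -1.16 ± 0.17 (SE), and with the GC trend removed GPS2 stood at -0.96 (limma adjusted p = 9.36e-05). GPS2 overlaps EIF5A on the other strand, a listed gene with a log2 fold change of -0.30, so its low count is uncertain. Beside GPS2, the largest falls were in BCL7C, a BAF subunit, and INO80E, a subunit of the INO80 remodeller, at -0.37 and -0.36. PHIP, BRWD1 and BRWD3, a family with WD repeats and bromodomains, showed the largest rises, of 0.34, 0.28 and 0.27. With the GC trend removed all 5 lost their calls, but PHIP, at 0.11, passed limma when the replicate block was added (adjusted p = 0.0301).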

How the data were processed

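RNA of 3 ACh and 3 Control samples was sequenced after preparation with a SMARTer kit, per the labels' protocols. The deposited signal is a normalised read count made by the authors: within 0.1 of a step, 100% of the values in each library were whole multiples of 1 step per library, between 0.768 and 1.13. Of the values, 81 to 121 per library lay at or under 20 steps. By the check used here, this was too few in the Control libraries to take 1 step as 1 read. No count test was therefore run, although count tests had been planned as alternatives. Per the file headers, the table also holds a log2 fold change and p-values of the authors' own test, and only genes with p under 0.05 are listed. The authors' deposited group means were not used. Bowtie 0.12.2 and mouse builds stand in the submitters' processing notes, and the labels give mouse, but the table is of human genes (4183 of 4195 IDs start with ENSG). The human build, the counting tool and any use of strand were not given in the sources used here.

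Values were tested as log2(value + 1) with limma 3.58.1 (limma-trend, R 4.3.3) on all 4195 genes, group being the only term, with Benjamini-Hochberg adjustment. The added 1 understates changes of low genes. Because the table was selected on the same libraries, limma calls 99.6% of it and is no independent support. GC content was that of the mouse gene sharing the symbol (its longest coding transcript, GENCODE M21), found for 3676 genes (87.6%). Its trend was removed from each library by a local regression of span 0.3. The test was checked on simulated data in which most genes were unchanged. The table holds only genes selected on p, so that check does not bear on the calls made here. Same-numbered libraries were not treated as pairs. Python 3.11.15, pandas 2.3.3, NumPy 2.4.6 and Matplotlib 3.10.9 were used. Human sequence was not used here, and no sequence is printed.

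The members and lists were chosen with earlier results of these data known. Genes described in full are, per class, up to 2 called members with the largest change in each direction, all members of the corepressor scaffolds, of Polycomb repressive complex 2 and of DNA methylation, CREBBP, and the 3 largest called changes per direction among other chromatin genes. KDM7A, KMT2A, HDAC2 and HDAC7 were added after their values were seen. Results of 2 genes that the name rule matched are not reported here singly or drawn, though all fits and counts include them.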

Additional observations from a re-analysis of the deposited data

How the results depend on the processing

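Of 16 alternatives, another pseudocount (0.1), the replicate block and leaving out any one library changed none of the 30 calls among the members, which says little about their stability: the authors' adjusted p, which sets that count, was not refitted, and limma called 3864 to 4037 of the 4195 genes with 1 library left out. The added settings, the gene-length trend and the first-degree regression, were chosen after seeing the data. The planned edgeR and DESeq2 fits were not run. The Control libraries held too few low values for the check used here to take 1 step as 1 read. Equal totals moved the median of all genes by 0.08 on the log2 scale; they left 5 falls among the members, 4 called remodellers, 1 arginine methyltransferase gene and 25 other chromatin genes. The lower-quartile filter left 3 called corepressor and deacetylase genes, because HDAC9, SIRT1, SIRT6 and HDAC5 were themselves filtered out for their low means. The gene-length trend, once removed, left 1 call each for DNA methylation and the demethylases and 2 for the lysine methyltransferases. Limma alone called all 3 acetyltransferase, all 7 bromodomain and PHD finger and all 8 lysine methyltransferase genes, as it did 99.6% of all listed genes.

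With the GC trend removed (in parentheses with the replicate block, then by a first-degree regression), 3 (4, 4) members kept their call, 3 (4, 4) of them higher and 0 (0, 0) lower, along with 2 (5, 3) other chromatin genes. By class the counts were 2 (2, 2) for corepressors and deacetylases, 1 (1, 1) for bromodomain and PHD finger proteins, 0 (1, 1) for lysine methyltransferases and 0 (0, 0) for Polycomb repressive complex 2, arginine methyltransferases, demethylases, remodellers and DNA methylation. The members' median log2 fold change was 0.23 with equal totals, 0.041 in each of the 3 GC fits, 0.013 with the length trend removed and 0.126 to 0.158 with 1 library left out, lowest without ACh replicate 3. With the GC trend removed, 22 of 43 members changed sign. Among them were the rises SETD2, NSD1 and PHF20L1 and the falls SIRT7, HDAC7, SMARCD2 and CHD3. Of the genes picked by rule for full description 6 did so, at the same values with the block. Their log2 fold changes were 0.010 for DNMT1, 0.017 for HDAC5, 0.099 for KMT2B, 0.052 for PRMT1, 0.034 for SMARCA4 and -0.0073 for SMARCA5. For KMT2B the block changed the call, with a limma adjusted p of 0.0302 (0.103 without it), and PHIP and KMT2C kept theirs with it. By the first-degree regression the values were 0.011 for HDAC5, 0.093 for KMT2B, 0.054 for PRMT1, 0.039 for SMARCA4, -0.0083 for SMARCA5 and 0.0015 for BCL7C. The cause was not tested.

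Same-numbered libraries had correlations of their deviations from the group means of 0.088, 0.104 and 0.193, each the highest for that library, which is a hint from the data and not from the design. With the GC trend kept, the replicate block gave 30 member calls under the same fixed authors' p, and 4187 limma calls over the table, where 4178 were made without it. Total depth is unknown, which limits the low genes KDM7A and GPS2 most.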
